A study of Mus musculus with 16 samples.

Results

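Lgr5 is 1 gene of the 49584 listed in the deposited count table, and its reads were followed in all 16 libraries of sorted mouse germinal centre B cells. It was picked from these same data because its level was much lower in mutants than in controls and higher in centroblasts, the cells of the dark zone, than in centrocytes, the cells of the light zone. Those differences are therefore given as descriptions, with no test. Of the listed genes 15240, Lgr5 among them, had enough reads to be fitted.

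The study compared B cells of the spleen from mice whose EZH2 carries the Y641F change with cells from control mice, by RNA sequencing. Mutants were labelled Ezh2(Y641F)fl/wt;Cγ1-cre+/- and controls Cγ1-cre+/-, so both carried the recombinase, and the labels give the strain C57BL/6J, an age of 3 months and litter 1 for all 16 libraries. Every mouse had received sheep red blood cells 8 days before its spleen was taken. All cells were B220+, FAS+ and CD38-; centroblasts were gated as CXCR4+ CD86- and centrocytes as CXCR4- CD86+. Cγ1-cre is driven from the immunoglobulin gamma 1 constant region locus and acts in activated B cells, so the mutant allele is switched on during the response and not from birth, and the libraries do not show in which share of cells it was switched on. Centroblasts and centrocytes of each genotype made up 4 groups of 4 libraries, which the design text calls biological replicates. Nothing in the labels says whether a centroblast and a centrocyte library with the same number came from the same mouse.

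LGR5 is a membrane receptor for R-spondins, secreted proteins that strengthen Wnt signals. ZNRF3 and RNF43 are ubiquitin ligases that take Frizzled receptors off the cell surface, and R-spondin bound to an LGR receptor draws these ligases away, so that more Frizzled stays to receive Wnt. Lgr5 is best known as a marker of stem cells in the crypts of the intestine and in hair follicles, where it is itself a target of Wnt. EZH2 is the enzyme of Polycomb repressive complex 2, which methylates histone H3 at silenced genes, and the Y641F change is found in lymphomas of germinal centre origin.

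In the mm10 genome (GENCODE M21) the gene, ENSMUSG00000020140.15, is read from the minus strand of chromosome 10, with its ends at 115450311 and 115587780. It is protein coding, spans 137470 bases and has 8 annotated transcripts, of which the main coding one has 18 exons and 4714 bases. The antisense gene A930009A15Rik overlaps it from 115569986 to 115582448. That gene had at most 1 read in any library, so the count of Lgr5 is hardly touched by the fact that the strand setting of the counting is not given in the sources used here. A gene count does not tell which transcript the reads came from.

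Lgr5 was highest in control centroblasts and lowest in mutant centrocytes. In control centroblasts its level was 31.6, 30.8, 26.4 and 24.7 CPM (the count scaled to a common library size after TMM adjustment), from 959 to 1192 reads per library. In mutant centroblasts it was 5.35, 5.86, 5.97 and 5.90 CPM, from 204 to 261 reads. Every mutant library of this cell type lay far below every control library, and the mutant values were close together. In control centrocytes the level was 6.98, 10.3, 9.84 and 9.16 CPM (261 to 430 reads), and in mutant centrocytes it was 0.810, 1.21, 0.919 and 0.605 CPM (23 to 45 reads). Again the genotypes did not overlap, and neither did the 2 cell types within a genotype.

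Group means (SD, n = 4) were 28.4 ± 3.34 CPM in control centroblasts, 9.06 ± 1.46 in control centrocytes, 5.77 ± 0.283 in mutant centroblasts and 0.885 ± 0.251 in mutant centrocytes. Relative to control centroblasts, control centrocytes held 31.9%, mutant centroblasts 20.3% and mutant centrocytes 3.12% of the level. No neighbours in this order overlapped; the closest were control centrocytes, whose lowest library had 6.98 CPM, and mutant centroblasts, whose highest had 5.97 CPM. Absence of overlap alone is common in these data: in the centroblast comparison all mutant libraries lay below all controls for 8.01% of tested genes, and in the centrocyte comparison for 12.4%. Between cell types centrocytes lay wholly below centroblasts for 12.3% of genes in controls and 10.5% in mutants. These shares set the scale of that count, which the choice of the gene had fixed.

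**Figure D1:**
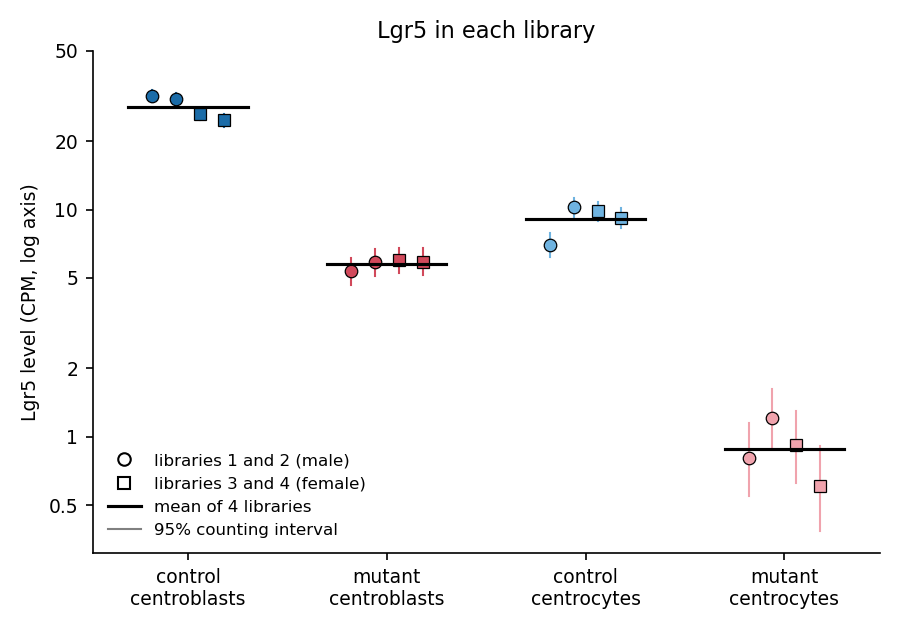
Lgr5 level in each of the 16 libraries (CPM, log axis) by group. Points are libraries, circles for males and squares for females, vertical lines are 95% counting intervals and horizontal bars are group means; control centroblasts sit between 24.7 and 31.6 CPM and mutant centrocytes between 0.605 and 1.21 CPM, with no overlap between any pair of groups.

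The spread between libraries can be set against what counting alone would give. The coefficient of variation was 11.8% in control centroblasts, where counting error would give 3.05%, and 16.1% in control centrocytes, against 5.26%. In mutant centroblasts it was 4.91%, against 6.72%, so the libraries there differed by no more than counting noise. In mutant centrocytes it was 28.4%, against 17.8%, and there the low count itself limits the precision. Since amplified reads carried no molecular identifiers, these counting values cover counting error only and are lower limits. The fitted biological coefficient of variation of Lgr5 was 16.4%, near the median of 18.1% over the 1226 genes of similar level.

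In the edgeR fit the mutant minus control difference was −2.30 ± 0.17 (log2, SE) in centroblasts, a level 4.92-fold lower (95% interval 3.81 to 6.35). It was −3.35 ± 0.19 in centrocytes, 10.2-fold lower (7.67 to 13.6). These intervals take no account of the choice of the gene for its falls, so they are no test. The centroblast value ranked 60th lowest of the 15240 tested genes and the centrocyte value 9th lowest. Most genes below it had a mean log2 CPM under 2. Among the 9875 genes with a mean log2 CPM of at least 2, Lgr5 was 8th lowest in centroblasts and the lowest in centrocytes. In bulk RNA, fewer cells that express the gene and less of its RNA per cell cannot be told apart.

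Between the cell types, Lgr5 was lower in centrocytes by 1.65 ± 0.17 on the log2 scale in controls, or 3.13-fold. In mutants the difference was −2.70 ± 0.19, or 6.51-fold. Among genes with a mean log2 CPM of at least 2, these were the 30th and the 2nd lowest values. Taking libraries by number, the ratio of centroblasts to centrocytes was 4.53, 3.00, 2.69 and 2.70 in controls and 6.61, 4.85, 6.50 and 9.74 in mutants. The ratios of the 2 genotypes did not overlap, although they depend on how libraries are paired by number. The plot of all genes shows Lgr5 at the edge of the cloud in both pairs of comparisons, with the genes of the R-spondin module that were tested beside it.

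**Figure D2:**
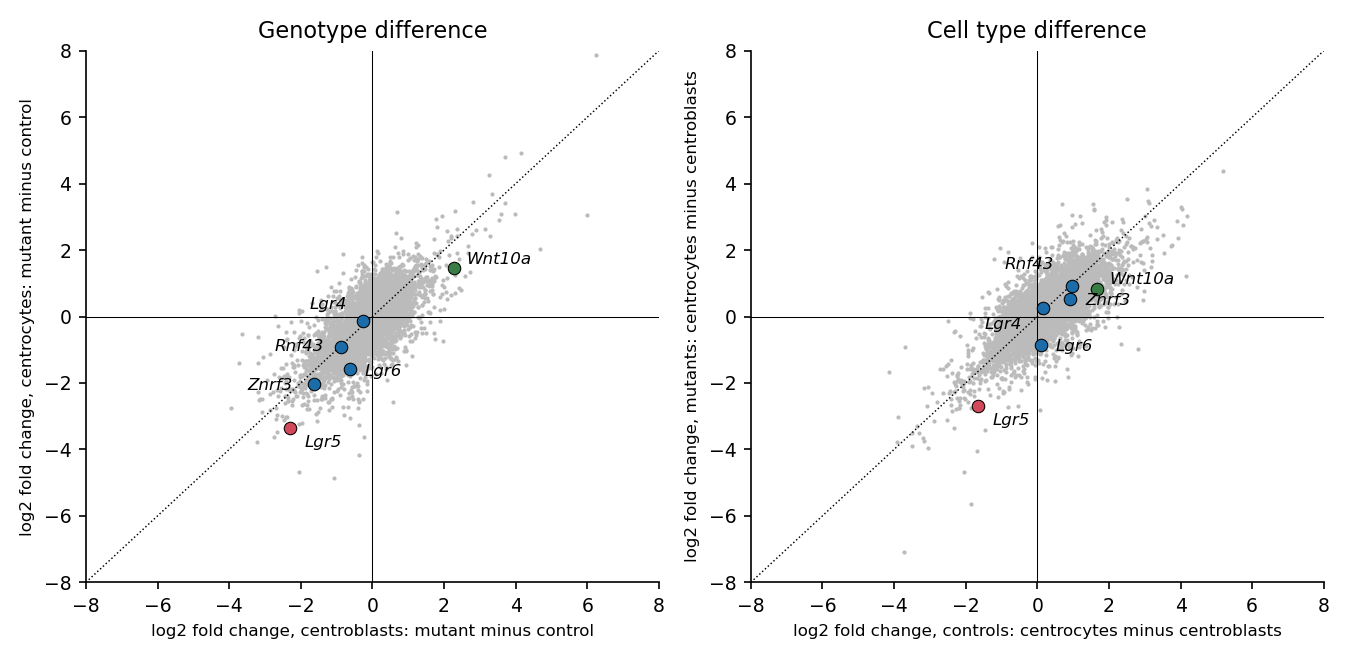
Log2 fold change of each tested gene (grey points) in 1 comparison against another. Left, mutant minus control in centroblasts (x) and centrocytes (y); right, centrocytes minus centroblasts in controls (x) and mutants (y); the dotted line marks equal values, and Lgr5 (red) lies below it at −2.30 and −3.35 on the left and at −1.65 and −2.70 on the right.

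The choice of the gene did not use the difference between these differences, and this interaction of genotype and cell type could be tested. It was −1.05 ± 0.24 (log2, SE; 95% interval −1.59 to −0.52), which means that the genotype difference in centrocytes was larger by that much than in centroblasts. With an unadjusted p of 0.000452 it was the 4th smallest of the 15240 genes in edgeR's quasi-likelihood test, and the Benjamini-Hochberg adjusted p was 0.999, so it did not pass. No gene passed that edgeR test. Of the 15240 genes 429 had an unadjusted p below 0.05, a smaller share than the 1 in 20 that chance alone gives. In DESeq2 1 gene passed, Vav3, and the adjusted p of Lgr5 was 0.091. There 460 genes had an unadjusted p below 0.05, again a smaller share than 1 in 20. Over all settings run, the interaction stayed between −1.24 and −0.85 and its adjusted p between 0.091 and 1.00.

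Levels of different genes can be compared per transcript length, as CPM divided by the length of the main transcript in kilobases (RPKM). On that scale Lgr5 averaged 6.02 in control centroblasts, 1.92 in control centrocytes, 1.22 in mutant centroblasts and 0.188 in mutant centrocytes. Of 11539 tested protein-coding genes with a length, 40.0% lay below Lgr5 in control centroblasts, 23.0% in control centrocytes, 21.9% in mutant centroblasts and 7.58% in mutant centrocytes. It was thus a gene of moderate level in its highest group and among the lowest of the tested genes in its lowest group.

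By their Y-linked transcripts, the libraries numbered 1 and 2 in each group were male and those numbered 3 and 4 female. Within each sex there were 2 libraries per group, too few for a test. The genotype difference in centroblasts was 5.57-fold in males and 4.31-fold in females, and in centrocytes it was 8.54-fold and 12.5-fold. Centroblasts exceeded centrocytes by 3.62-fold in control males and 2.69-fold in control females, and by 5.56-fold and 7.79-fold in mutants. All 4 differences thus had the same direction in both sexes.

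The libraries held 35230563 to 44466911 counted reads. Of the markers of germinal centre B cells, the transcription factor Bcl6 averaged 490 CPM over the 16 libraries, Fas, a receptor used in the gate, 140 CPM and S1pr2, a receptor that holds cells in the germinal centre, 503 CPM. Cxcr4, the centroblast gate receptor, was lower in centrocytes by 1.17 ± 0.10 (log2, SE) in controls, and Cd86, the centrocyte gate marker, was higher by 0.95 ± 0.17; as sort markers they only check the gate. Ezh2 averaged 289 ± 42.0 and 222 ± 32.0 CPM in control and mutant centroblasts, and 245 ± 15 and 189 ± 15.2 CPM in control and mutant centrocytes. Its count covers both alleles and so does not check the genotype label.

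Markers of stroma and epithelium, tissues in which Lgr5 is known to be expressed, were low in all groups. The 11 markers of stroma and follicular dendritic cells, among them Madcam1 and Pdgfrb, summed to at most 0.103 CPM in control centroblasts. Lgr5 was highest in that group, and 8 of the 11 markers were at 0 in all 4 of its libraries. Over all libraries they reached at most 1.5 CPM. Madcam1, the highest of them (mean 0.205 CPM), was the only 1 tested. It was called higher in control centrocytes than in control centroblasts, by 3.07 on the log2 scale. The 7 epithelial markers, such as Epcam and Krt18, summed to 2.25 to 4.2 CPM in control centroblasts and to 2.84 to 4.39 CPM in mutant centrocytes. In control centrocytes they summed to 1.6 to 3.04 CPM and in mutant centroblasts to 2.89 to 4.11 CPM. Of the 4 that were tested, Krt18 and Cldn7 rose in mutant centrocytes against control centrocytes, by 1.11 ± 0.34 and 2.70 ± 0.63 (log2, SE, edgeR adjusted p = 0.0319 and 0.00777), and their part in the Lgr5 difference was not tested. T cell markers reached at most 4.62 CPM.

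Macrophage markers (10 genes, all detected in each group) were highest in mutant centrocyte libraries 3 and 4. They summed to 14.1 to 41.7 CPM in control centroblasts, 20.3 to 53.0 in mutant centroblasts and 46.1 to 69.1 in control centrocytes. In centroblasts the female libraries, 3 and 4, had the higher sums in both genotypes. These were 36.7 and 41.7 against 14.1 and 23.3 CPM in controls, and 53.0 and 52.0 against 24.0 and 20.3 CPM in mutants. In control centrocytes the sexes overlapped. In mutant centrocytes the markers summed to 52.1, 36.6, 187 and 182 CPM in libraries 1 to 4. Lgr5 was 0.919 and 0.605 CPM in the libraries with the high sums and 0.810 and 1.21 CPM in the others. Without mutant centrocyte libraries 3 and 4 the genotype difference of Lgr5 in centrocytes was −3.16 ± 0.22 (log2, SE) and the interaction −0.85 ± 0.25. That fit kept mutant centrocytes of males only, set against controls of both sexes. Markers of naive B cells, Ighd and Fcer2a among them, also went with the cell type: they summed to 336 to 473 CPM in centroblasts of both genotypes and to 941 to 1157 CPM in centrocytes. Their part in the lower Lgr5 of centrocytes was not tested.

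Lgr5 was the most abundant of the receptors for R-spondin in 3 of the 4 groups. Per length, Lgr4 averaged 0.451 and Lgr6 0.0930 RPKM in control centroblasts, against 6.02 for Lgr5. In mutant centrocytes Lgr4 averaged 0.453 and Lgr6 0.0326 RPKM, against 0.188 for Lgr5, so that there Lgr4 was the highest of the 3. Lgr4 ranged from 1.83 to 3.16 CPM in control centroblasts, 1.70 to 2.11 in mutant centroblasts, 1.98 to 3.12 in control centrocytes and 2.04 to 2.51 in mutant centrocytes, with overlap between all groups. Its genotype differences of −0.25 ± 0.21 in centroblasts and −0.14 ± 0.20 in centrocytes (log2, SE) did not pass (edgeR adjusted p = 0.522 and 0.666). In both cell types the genotypes overlapped for Lgr4, where they did not for Lgr5.

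Lgr6, the least abundant of the 3, had 0.464 to 0.762 CPM in control and 0.298 to 0.468 in mutant centroblasts, a difference of −0.64 ± 0.50 that did not pass (edgeR adjusted p = 0.496). In centrocytes it had 0.316 to 1.05 CPM in controls and 0 to 0.316 in mutants, and fell by 1.59 ± 0.52 on the log2 scale (edgeR adjusted p = 0.0464). That call was lost on leaving out any 1 of 13 libraries, that is all except control centroblast libraries 1 and 4 and control centrocyte library 4, with adjusted p values up to 0.149, and without mutant centrocyte libraries 3 and 4 together (0.113) or with a replicate block (0.0569). At fewer than 50 reads per library, Lgr6 is near the limit of what this depth can show. The ligands Rspo1 to Rspo4 had at most 3 reads in any library and were not tested, and the 5 hormone and relaxin receptors related to the LGR family (Fshr, Lhcgr, Tshr, Rxfp1 and Rxfp2) had at most 8.

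Of the ligases that LGR5 and R-spondin restrain, Znrf3 fell in mutants of both cell types and Rnf43 in centrocytes. Znrf3 had 6.46, 5.65, 4.57 and 3.77 CPM in control and 1.55, 1.21, 1.47 and 2.40 CPM in mutant centroblasts. In centrocytes it had 6.34, 10.2, 13.3 and 8.99 CPM in controls and 3.19, 1.96, 2.04 and 2.40 CPM in mutants. The genotypes overlapped in neither cell type. Znrf3 fell by 1.63 ± 0.26 (log2, SE, n = 4 per group, edgeR adjusted p = 0.000518) in centroblasts and by 2.02 ± 0.26 (adjusted p = 8.16e-05) in centrocytes. Both calls held whichever library was left out.

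Rnf43, the other ligase, averaged 3.79 ± 1.18 CPM in control and 2.08 ± 0.50 CPM in mutant centroblasts, and the difference of −0.87 ± 0.28 did not pass (edgeR adjusted p = 0.0580). It did pass without control centroblast library 1 (0.0172) or mutant centrocyte library 2 (0.0413), in DESeq2, and with a replicate block, sex, no filter or a GC and length offset. In control centrocytes Rnf43 averaged 7.38 ± 1.26 CPM, against 3.93 ± 1.39 CPM in mutant centrocytes, and it fell by 0.91 ± 0.27 (adjusted p = 0.0304). That call was lost without control centrocyte library 2, 3 or 4 (0.0602, 0.0906 and 0.0731), mutant centrocyte library 2 or 3 (0.0918 and 0.0858), or mutant centrocyte libraries 3 and 4 together.

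Between control cell types both ligases differed in the opposite direction to Lgr5. In controls Znrf3 was higher in centrocytes by 0.92 ± 0.25 (edgeR adjusted p = 0.0108) and Rnf43 by 0.96 ± 0.27 (adjusted p = 0.0146), while Lgr5 was lower there. Each of these calls was lost without control centrocyte library 3 (0.0509 and 0.0503). In mutants Rnf43 was higher in centrocytes by 0.92 ± 0.28 (adjusted p = 0.0326), a call lost without mutant centroblast library 1, 2 or 3 or mutant centrocyte library 1 or 4 (up to 0.125) or without mutant centrocyte libraries 3 and 4. Znrf3 differed by 0.54 ± 0.26 there and did not pass (adjusted p = 0.186).

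For the wider pathway, 107 genes of the R-spondin and Wnt lists other than Lgr5 were in the table, and 53 had enough reads to be tested. Mutant against control in centroblasts, 1 of the 53 rose and 4 fell, where 4.06% of all tested genes rose and 6.4% fell. In centrocytes 3 rose and 7 fell, where 7.37% and 9.15% of all tested genes did. The median log2 difference of the 53 genes was 0.01 in centroblasts, as over all tested genes, and −0.15 in centrocytes, against 0.00 over all. These counts were unsteady. The rise count in centroblasts was 2 without control centroblast library 1 or 4 or mutant centrocyte library 3. In centrocytes the rise count was 1 without control centrocyte library 2 or 4 or mutant centrocyte library 1, 2 or 4, and the fall count was 3, 2, 4 and 2 without control centrocyte library 2 or 3 or mutant centrocyte library 1 or 3. With mutant centrocyte libraries 3 and 4 both left out, 1 rose and 3 fell. An offset for GC and length gave 4 rises and 5 falls in centroblasts and 6 rises and 9 falls in centrocytes.

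Among the Wnt ligands, 17 of 19 had at most 11 reads in any library and were not tested. Wnt10a, which signals through Frizzled and beta-catenin, rose in mutants of both cell types. It had 0.111, 0.181, 0.356 and 0.645 CPM in control centroblasts and 2.55, 1.32, 1.44 and 1.08 CPM in mutant centroblasts, with no overlap. It rose by 2.28 ± 0.48 (log2, SE, edgeR adjusted p = 0.00458), whichever library was left out. In centrocytes it had 0.989, 0.548, 1.41 and 1.22 CPM in controls and 4.44, 2.95, 1.32 and 2.71 CPM in mutants, and mutant library 3 lay within the control range. The rise there was 1.46 ± 0.44 (adjusted p = 0.0302) and was lost without control centrocyte library 1, 2 or 4 (0.0557, 0.0941 and 0.0580) or mutant centrocyte library 1, 2 or 4 (0.0964, 0.0590 and 0.0524). In controls Wnt10a was also higher in centrocytes than in centroblasts, by 1.67 ± 0.48 (adjusted p = 0.0164), which was lost without control centroblast library 2 (0.0505) or control centrocyte library 3 (0.0533). Wnt10a thus differed between genotypes, and between control cell types, in the opposite direction to Lgr5.

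Of 16 Wnt receptor genes 5 were tested. Ryk, a receptor for Wnt with an inactive kinase domain, had 9.29, 12.4, 12.9 and 9.80 CPM in control and 6.64, 5.20, 4.19 and 4.60 CPM in mutant centroblasts, and fell by 1.10 ± 0.19 (edgeR adjusted p = 0.00115), whichever library was left out. In centrocytes it fell by 0.68 ± 0.19 (adjusted p = 0.0233), a call lost without control centrocyte library 2 or 3 (0.0742 and 0.0766) or mutant centrocyte library 3 or 4 (0.0681 and 0.0651), or without the latter pair together. Fzd5, the most abundant Frizzled that was tested, was lower in centrocytes than in centroblasts by 1.25 ± 0.24 in mutants (adjusted p = 0.00137), whichever library was left out, and by 0.75 ± 0.23 in controls (adjusted p = 0.0220; 0.0622 and 0.0679 without control centrocyte library 1 or 2). Between genotypes it fell by 0.87 ± 0.24 in centrocytes (adjusted p = 0.0179), lost without control centrocyte library 3 or 4 (0.0682 and 0.0559) or mutant centrocyte library 1 or 3 (0.0512 and 0.0552). In centroblasts its difference of −0.37 ± 0.23 did not pass (adjusted p = 0.369).

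In the cytoplasm, Csnk1e, a casein kinase that acts on Dishevelled, averaged 64.1 ± 12 CPM in control and 40.7 ± 5.09 CPM in mutant centroblasts. It fell there by 0.66 ± 0.16 (edgeR adjusted p = 0.0114). In centrocytes it fell by 0.83 ± 0.16 (adjusted p = 0.00200), and both calls held whichever library was left out. Csnk1e was, like Lgr5, lower in centrocytes, by 0.69 ± 0.16 in mutants (adjusted p = 0.00624, lost without mutant centrocyte libraries 3 and 4) and by 0.51 ± 0.16 in controls (adjusted p = 0.0226). The latter was lost without control centroblast library 3 or 4 (0.0650 and 0.0553) or control centrocyte library 2 or 4 (0.0682 and 0.0637). Ctnnb1, beta-catenin itself, averaged 510 ± 37.6 and 420 ± 48.6 CPM in control and mutant centroblasts and did not pass between genotypes (adjusted p = 0.134 in centroblasts and 0.271 in centrocytes). It was lower in control centrocytes than in control centroblasts by 0.45 ± 0.11 (adjusted p = 0.00618). In mutants the difference was −0.36 ± 0.11 (adjusted p = 0.0347, but 0.0626 with the libraries blocked by number within a genotype). That call was also lost without control centroblast library 2, mutant centroblast library 1, 3 or 4 or mutant centrocyte library 1, 2 or 3 (up to 0.134).

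Btrc, part of the ligase that marks beta-catenin for degradation, fell in mutants by 0.40 ± 0.11 in centroblasts and by 0.35 ± 0.11 in centrocytes (edgeR adjusted p = 0.0312 and 0.0428). The first call was lost without control centroblast library 2 or 3 or mutant centroblast library 2 or 3 (up to 0.0854). The other was lost without control centroblast library 2 or 3, mutant centroblast library 1, control centrocyte library 1, 2 or 3 or mutant centrocyte library 1, 2 or 3 (up to 0.110), and with a replicate block (0.0621). Both were also lost with no filter or with the compared groups alone, and once GC content and length were offset the differences shrank to −0.20 and −0.02.

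Of 13 tested nuclear list members, 1 passed between genotypes in centrocytes, where 16.5% of all tested genes passed. In centroblasts, where 10.5% of all tested genes passed, the 13 members did not. The member that passed was Aes, a short relative of the Groucho corepressors, higher by 0.43 ± 0.14 (edgeR adjusted p = 0.0394); the call was lost on leaving out any 1 of 11 libraries (control centroblast 2, mutant centroblast 1, 3 or 4, control centrocyte 2, 3 or 4, or any mutant centrocyte library), with adjusted p values up to 0.111, and with a replicate block (0.0537). Of the genes that report Wnt signals in other tissues, Axin2 had at most 2 reads in any library. Cd44, an adhesion receptor, rose in mutant centrocytes by 0.47 ± 0.11 (adjusted p = 0.00743). That call was lost without mutant centrocyte libraries 3 and 4 (0.104), which had the high macrophage sums given above and are the females of that group. Myc and Ccnd2 did not pass between genotypes in either cell type.

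Between cell types more of the pathway differed than between genotypes. The share called was 34.0% of the 53 genes in each genotype, against 9.43% between genotypes in centroblasts and 18.9% in centrocytes. Of all tested genes 27.8% differed between cell types in controls and 16% in mutants. Between genotypes 10.5% of them differed in centroblasts and 16.5% in centrocytes. In controls 12 of the 53 genes were higher in centrocytes and 6 were lower, where 14.9% and 12.9% of all tested genes were. In mutants 11 were higher and 7 lower, where 8.92% and 7.07% of all tested genes were; the lower count was 4 without mutant centroblast library 1 or 3, without mutant centrocyte library 1, or without mutant centrocyte libraries 3 and 4. The median log2 difference was 0.23 in controls and 0.19 in mutants, against 0.00 and 0.02 over all tested genes. Once GC content and length were offset, 12 were higher and 14 lower in controls and 10 higher and 12 lower in mutants, so the excess of higher over lower members was not kept.

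Of the 13 tested nuclear list members, 4 were higher and 1 was lower in control centrocytes, and 5 were higher and 2 lower in mutant centrocytes. Over all tested genes 14.9% were higher and 12.9% lower in control centrocytes, and 8.92% and 7.07% in mutant centrocytes. Bcl9, a coactivator of beta-catenin, was higher in centrocytes by 0.83 ± 0.12 in controls and 0.63 ± 0.12 in mutants (edgeR adjusted p = 9.99e-05 and 0.00159). The corepressor Tle3 was higher by 0.87 ± 0.13 and 0.76 ± 0.13 (adjusted p = 0.000117 and 0.000581). Tle2, another corepressor, was higher by 3.34 ± 0.42 and 2.34 ± 0.40, from a mean below 1 CPM. Cby1, a protein that binds and restrains beta-catenin, was lower in centrocytes by 0.94 ± 0.15 and 0.91 ± 0.15 (adjusted p = 0.000181 and 0.000376). Dvl1 and Dvl3, the Dishevelled adaptors that act next to Frizzled, were higher in control centrocytes by 0.72 ± 0.18 and 0.68 ± 0.15 (adjusted p = 0.00598 and 0.00292). All of these calls held whichever library was left out. In mutants neither Dvl1 nor Dvl3 passed between cell types.

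Among genes that Wnt induces in other tissues, Myc, the growth regulator, averaged 1.47 ± 0.20 (log2, SE) more in control centrocytes than in control centroblasts and 1.08 ± 0.20 more in mutants (edgeR adjusted p = 4.56e-05 and 0.00104). Ccnd2, cyclin D2, was higher by 2.57 ± 0.40 and 2.37 ± 0.40 (adjusted p = 0.000164 and 0.000536). Both are also regulated by other signals in germinal centre cells. Cd44 went the other way, lower in centrocytes by 0.70 ± 0.11 in controls (adjusted p = 0.000161) and by 0.42 ± 0.11 in mutants (adjusted p = 0.0133, but 0.0525 without mutant centrocyte library 1). Lgr5 thus shared the direction of Cd44 and Ctnnb1 between control cell types, and not that of Myc or Ccnd2.

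**Figure D3:**
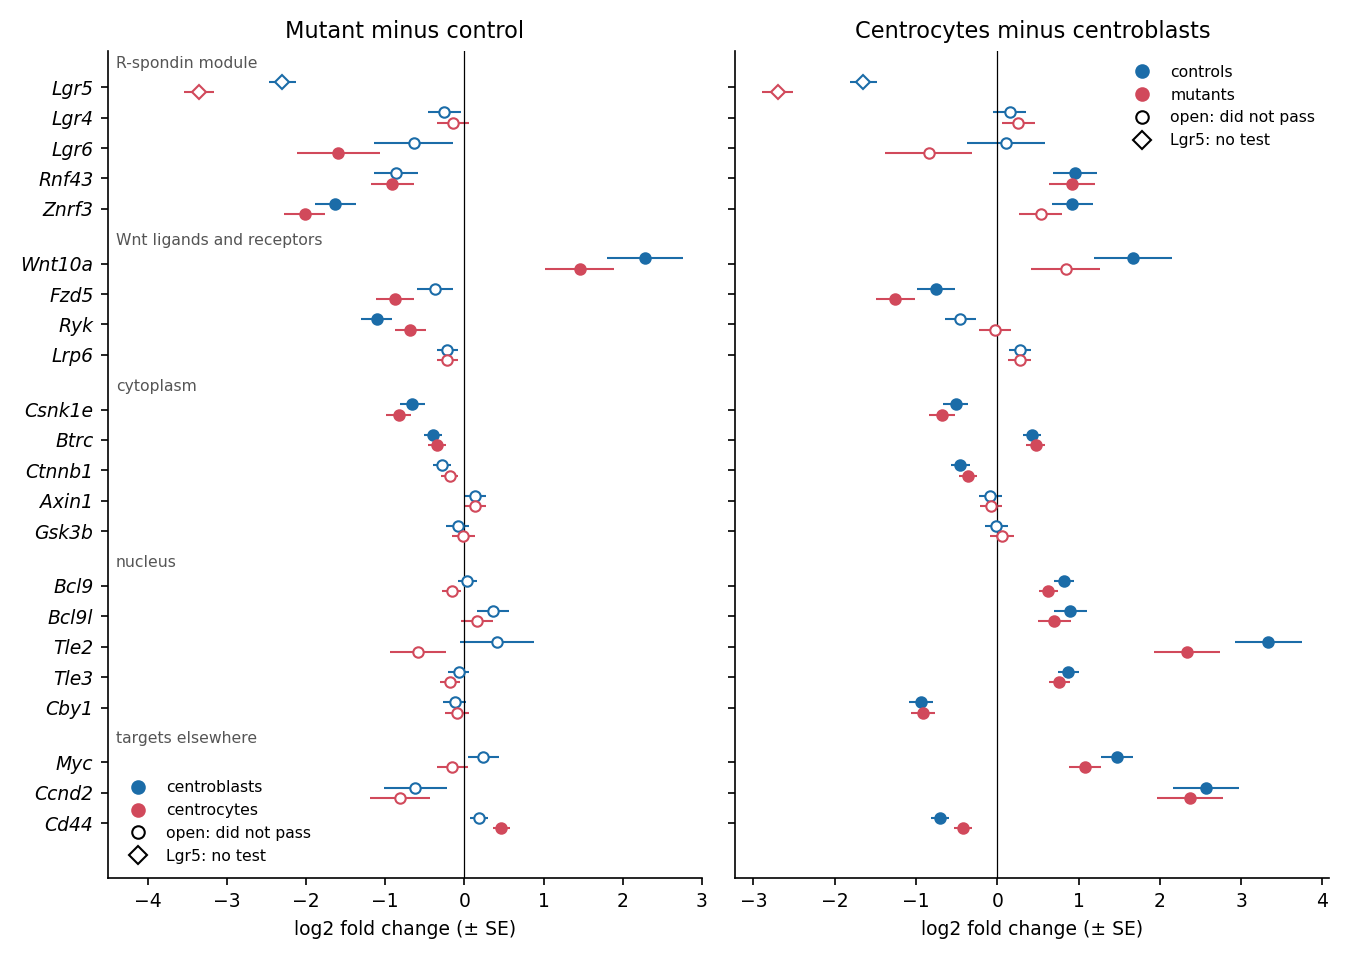
Log2 fold change with its SE for Lgr5 and 21 genes of the R-spondin and Wnt lists, mutant minus control on the left and centrocytes minus centroblasts on the right. Filled circles passed the edgeR test at an adjusted p of 0.05, open circles did not, and open diamonds are Lgr5, which was not tested; on the left Znrf3 and Ryk lie below 0 and Wnt10a above 0 in both cell types, and on the right Lgr5 lies below 0 while Myc and Ccnd2 lie above.

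Of 20 other genes that mark intestinal stem cells 12 were tested. Olfm4, Ascl2, Sox9 and Axin2 had at most 10 reads in any library, and Smoc2 had none. Of the 12 tested, 1 fell in mutant centroblasts and 11 did not pass, where 6.4% of all tested genes fell. In mutant centrocytes 3 fell and 9 did not pass, where 9.15% of all tested genes fell; the members that fell were Znrf3 in both, with Rnf43 and Tert in centrocytes. Tert, the reverse transcriptase of telomerase, fell by 0.86 ± 0.28 (edgeR adjusted p = 0.0465), a call lost without control centroblast library 3, mutant centroblast library 1 or 3, control centrocyte library 2, 3 or 4 or any mutant centrocyte library (up to 0.145), and with a replicate block (0.0690). Between cell types 5 of the 12 were higher and 1 was lower in control centrocytes, where 14.9% and 12.9% of all tested genes were. In mutant centrocytes 3 were higher and 2 lower, where 8.92% and 7.07% of all tested genes were. Rgmb, a coreceptor for BMP, was higher in centrocytes by 0.78 ± 0.18 in controls and 0.76 ± 0.18 in mutants (adjusted p = 0.00362 and 0.00644), the opposite of Lgr5. Lrig1, a negative regulator of growth factor receptors, was lower in mutant centrocytes than in mutant centroblasts by 1.77 ± 0.38 (adjusted p = 0.00352).

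The genes whose profile over the 16 libraries was most like that of Lgr5 were found by the Pearson correlation of log2 CPM. This is a description: the libraries, their 4 groups and their depth are shared by all genes, and the correlation is carried by the group means. Mdm1, a microtubule-binding protein of centrioles, had the highest value (r = 0.982), then Spag5, which acts at the mitotic spindle (0.965), 4933421O10Rik (0.961) and Mctp2 (0.957). Mfsd6, Zhx3, Ppfibp1, Sorbs2, Dusp5, a phosphatase that acts on ERK, and Cdca2, a mitotic chromatin protein, followed between 0.947 and 0.954. Mdm1 averaged 50.1 CPM in control centroblasts, 36.3 in control centrocytes, 31.0 in mutant centroblasts and 19.5 in mutant centrocytes, the same order as Lgr5 over a smaller range. Mdm1 lies on the same chromosome, from 118141811 to 118168997.

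The opposite profile was led by Pecam1, an adhesion receptor that B cells also carry (r = −0.964), Fcmr, the receptor for the constant part of IgM (−0.964), C130026I21Rik (−0.963), Hexa (−0.959) and Casp6 (−0.959). Pecam1 averaged 80.8 CPM in control centroblasts and 283 CPM in mutant centrocytes. Once the group means were taken out, the correlations of these 15 genes with Lgr5 lay between −0.55 and 0.55, with both signs in each set. Ppfibp1, a liprin of the cell cortex, came closest to Lgr5 in the size of its genotype differences among the 10, at −1.56 in centroblasts and −2.09 in centrocytes on the log2 scale.

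**Figure D4:**
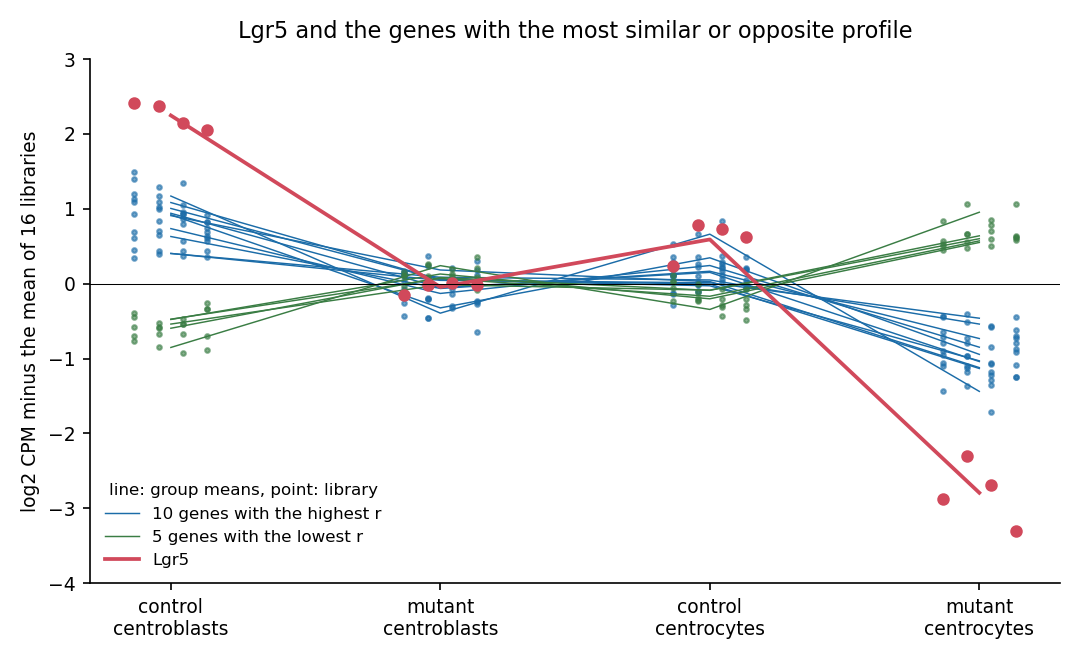
Log2 CPM minus the mean of 16 libraries, by group, for Lgr5 (red), the 10 genes with the highest correlation with it (blue) and the 5 with the lowest (green). Points are libraries and lines join group means. Like Lgr5, all 10 blue genes were highest in control centroblasts and lowest in mutant centrocytes, over a narrower range. Unlike Lgr5, some of them, such as Spag5 (150 and 146 CPM), were higher in mutant centroblasts than in control centrocytes.

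By size, few genes had the whole pattern. Besides Lgr5, 7 tested genes were lower in mutants by at least 2 on the log2 scale in both cell types and lower in centrocytes by at least 1 in both genotypes: Kcnh1, Tmtc1, Gnb5, Hmgcll1, Vipr1, Dnajc12 and Krt77. Their mean over all libraries was at most 1.11 CPM, against 11 CPM for Lgr5. Dnajc12, a cochaperone and the most abundant of them, averaged 2.74, 0.916, 0.605 and 0.189 CPM in control centroblasts, control centrocytes, mutant centroblasts and mutant centrocytes. Gnb5, a G protein beta subunit, averaged 2.2, 1.09, 0.538 and 0.245 CPM in the same order. These genes were chosen for their differences, so no test is given.

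The nearest genes on chromosome 10 did not share the size of the Lgr5 difference. On the side of lower coordinates the 5 nearest protein-coding genes, Zfc3h1, Thap2, Tmem19, Rab21 and Tbc1d15, end between 17.5 and 199 kb from Lgr5, and none passed between genotypes in either cell type. Thap2 averaged 19.2 and 19.6 CPM in control and mutant centroblasts, and Tbc1d15 50.6 and 55.6 CPM. On the other side Tspan8, Ptprr, 4933416C03Rik and Ptprb, between 229 and 688 kb away, had at most 7 reads in any library. Kcnmb4, a subunit of a potassium channel 830 kb away, rose in mutant centrocytes by 1.01 ± 0.27 (edgeR adjusted p = 0.0167), lost without control centrocyte library 4 (0.0518) or mutant centrocyte library 2 (0.0793). Of the 6 tested neighbours, 0 of 6 were called in centroblasts and 1 of 6 in centrocytes, where 10.5% and 16.5% of all tested genes were called in either direction.

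Between cell types Rab21, a small GTPase of endosomes, was lower in control centrocytes than in control centroblasts by 0.69 ± 0.14 (edgeR adjusted p = 0.00145), as Lgr5 was. In mutants it was lower by 0.45 ± 0.14 (adjusted p = 0.0345, but 0.0604 with libraries blocked by number within a genotype), a call also lost without mutant centroblast library 1 or 3 or mutant centrocyte library 1, 2 or 3 (up to 0.125). Kcnmb4 was higher in centrocytes by 1.11 ± 0.28 in controls and 1.55 ± 0.28 in mutants (adjusted p = 0.00753 and 0.000808). The other 4 of the 6 tested neighbours did not pass in either genotype.

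**Figure D5:**
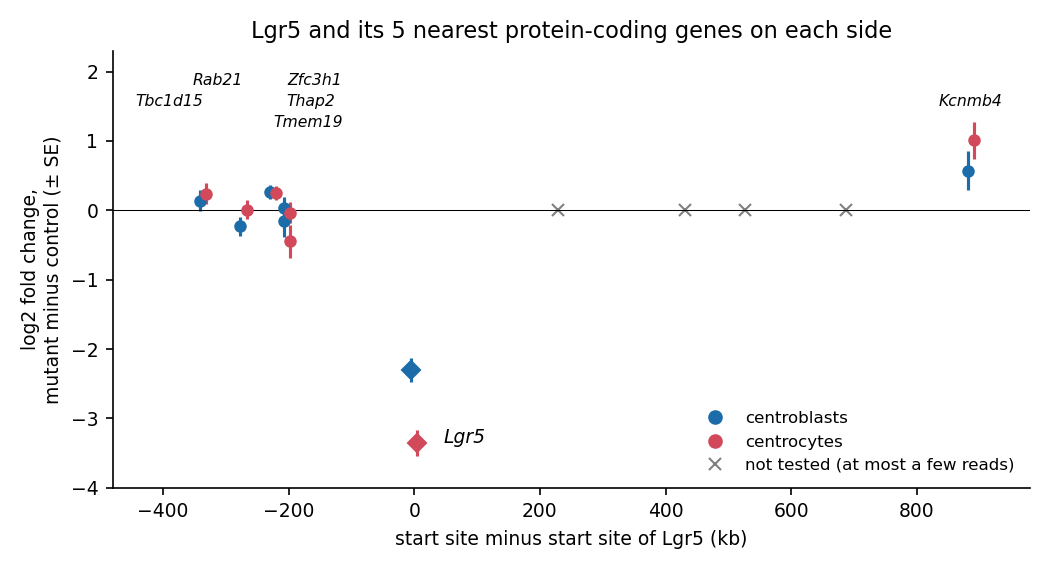
Mutant minus control log2 fold change with its SE for Lgr5 (diamonds) and its nearest protein-coding genes, by the distance of start sites in kb. Blue points are centroblasts, red points are centrocytes and crosses are genes with at most 7 reads in any library; Lgr5 lies at −2.30 and −3.35 while the tested neighbours lie between −0.44 and 1.01.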

How the data were processed

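RNA of the 16 sorted libraries had been prepared with Illumina TruSeq kits. The deposited values are raw counts of reads per gene symbol; per the submitters' processing notes the authors used Trim Galore, cutadapt, STAR 2.5.3a and featureCounts 1.4.5-p1 (Subread) on mm10. Annotation and counting settings are not given in the sources used here. Locus data came from GENCODE M21, matched by symbol (96.9% of the tested genes). In R 4.3.3, counts were filtered with edgeR 4.0.16 (filterByExpr), scaled by TMM and fitted by quasi-likelihood with 1 mean per group over 16 libraries (12 residual degrees of freedom). Tests were 2-sided and Benjamini-Hochberg adjustment was over all 15240 genes, with calls at an adjusted p under 0.05. CPM values are means of TMM-scaled counts; correlations used log2 CPM with a prior count of 2. DESeq2 1.42.0 and the other settings are given under the dependence on processing. The procedure was tested on simulated counts. These held no differences of sex or macrophage content between libraries, so they do not show how the procedure behaves with such differences.

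Lgr5, the gene lists and the naming rule were picked with earlier results of these data known. The rule named Lgr5, the R-spondin and LGR genes, Ezh2 and the sort genes. It added called and abundant members of the Wnt and stem cell lists, the 10 genes most and 5 least correlated with Lgr5, genes with the same pattern by size, 5 neighbours per side and 2 markers per cell type list. The text names part of them. Same-numbered libraries were compared by the correlation of their deviations from group means: it was 0.263 to 0.327 in the 4 mutant pairs, all above 0.1, and −0.01, 0.40, 0.45 and 0.13 in the control pairs, of which 3 exceeded 0.1. In mutants 1 of 4 pairs matched best in both directions. Centroblast libraries numbered 4 of control and mutant, which are different mice, also correlated at 0.344. A value above 0.1 thus cannot show that 2 libraries share a mouse. The main fit treated no libraries as paired, and numbers entered only the fits with a block.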

Additional observations from a re-analysis of the deposited data

Results flagged for a closer look

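The libraries of Lgr5 held none that stood far from the others of its group by Dixon's test at the 95% level. Over 54 named genes and 4 groups, 9 of 216 checks did (4.17%), and chance alone flags about 1 in 20. At low counts, Lgr6 was at 0 CPM in mutant centrocyte library 3, where the others had 0.268 to 0.316. Wnt10b had 0.0277 CPM in control centroblast library 1 (others 0.152 to 0.155) and 0.115 in mutant centrocyte library 3 (others 0.376 to 0.421). Tert had 1.18 CPM in mutant centrocyte library 4 (others 1.89 to 2.01). Dvl1 had 24.2 CPM in control centroblast library 1 (others 34.6 to 36.5). In control centrocyte library 1, Aes was 262 CPM (others 228 to 230), Zhx3 14.7 (others 15.5 to 15.6) and Fcmr 535 (others 405 to 424). Hexa was 48.4 CPM in control centroblast library 4 (others 37.9 to 38.6). Why these libraries differed was not tested.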

How the results depend on the processing

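The 4 differences of Lgr5 kept their direction in every setting. Leaving out each library in turn gave −2.37 to −2.25 between genotypes in centroblasts and −3.54 to −3.21 in centrocytes, and −1.71 to −1.55 between cell types in controls and −2.89 to −2.56 in mutants; the interaction ranged from −1.24 to −0.91. An offset for GC content and length, added after the data were seen, gave −2.12 in centroblasts; the cause was not tested. With the replicate block the values were −2.30, −3.36, −1.65, −2.72 and −1.06, and of the 71 called results among the 81 named ones 64 stayed called, against 41 whichever library was left out. None of the 81 reversed.

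Counts of called pathway genes moved more. In centroblasts 2 rose in DESeq2, 2 in the fit with sex added and 4 with the offset. In centrocytes 6 rose with the offset, and 1 rose and 3 fell without mutant centrocyte libraries 3 and 4. With the offset 14 were lower in centrocytes in controls and 12 in mutants; without those 2 libraries 4 were lower in mutants. Leaving out single libraries gave 1 to 2 rises and 3 to 6 falls in centroblasts, 1 to 3 and 2 to 8 in centrocytes, 9 to 16 higher and 4 to 7 lower in control centrocytes, and 8 to 13 and 4 to 8 in mutant centrocytes. Over all tested genes, 1595, 2517 and 2438 calls (centroblasts, centrocytes, mutant cell types) became 2689, 4267 and 3951 with the offset. Calls in centroblasts were 1056 with the compared groups alone, and in centrocytes 1224 without mutant centrocyte libraries 3 and 4. Leaving out single libraries gave 1110 to 2173 calls in centroblasts, 1601 to 3088 in centrocytes (1601, 1646 and 1641 without control centrocyte library 2, 3 or 4) and 1818 to 2910 between mutant cell types. The interaction had 1 call in DESeq2 (0 in edgeR). Fits with fewer libraries or groups have fewer degrees of freedom, and the other causes were not tested. Depth limits mutant centrocytes most, with 23 to 45 reads of Lgr5 per library.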
